A study of Mus musculus and synthetic construct with 32 samples.

Results

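The 10 genes described here encode the PIWI proteins and the factors that make or load their small RNAs, and all 10 of them were found by name among 22976 gene names with sense exons or introns in the mouse tables. They were chosen by a fixed list of symbols: Piwil1, Piwil2 and Piwil4 for the PIWI proteins, Mov10l1, Pld6, Asz1, Gtsf1 and Mael for piRNA production and its granules, and Ddx4 and Fkbp6 for a germ-cell helicase and a co-chaperone. In the study, RNA of mouse gonads on the C57BL/6J background was compared with and without Ythdc2, whose product is an RNA helicase with a domain for N6-methyladenosine (m6A). Total RNA came from whole gonads of knockout mice (YTHDC2 -/-) and controls. At postnatal day 12 (P12), 3 knockout and 3 heterozygous (YTHDC2 +/-) testis libraries were compared, and at P0 2 knockout and 2 heterozygous ovary libraries. The P8 testis had 2 knockout libraries, 1 heterozygous and 1 wild-type (YTHDC2 +/+) library. For m6A, polyadenylated RNA of P8 wild-type testis was fragmented and pulled down with an antibody, in 1 immunoprecipitate and 1 input library. The m6A mean counts are over further libraries too. These are 2 immunoprecipitates and 2 inputs each of P12 heterozygous and P20 wild-type testis, whose folds were not used. The mutation is in every cell, from either of a pair of lines, one with exon 7 deleted and the other with stop codons inserted in exon 7, and the labels do not say which line a library came from. The heterozygous controls carry a mutated allele themselves, and whether animals were pooled is not given in the sources used here.

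PIWI proteins are Argonaute relatives that carry piRNAs, small RNAs of germ cells that guide them to transposon transcripts. The helicase MOV10L1 binds their long precursors, the nuclease PLD6 cuts these at the mitochondrial surface, and the pieces are loaded and trimmed. In the fetal testis MILI (Piwil2) and MIWI2 (Piwil4) take part in methylating transposon promoters, and MIWI (Piwil1) acts later, from pachytene spermatocytes to spermatids. Mouse oocytes also hold MILI, but females without these genes are largely fertile, while males become sterile.

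The values are the authors' own comparisons, each a log2 fold change with a DESeq2 adjusted p, beside a mean normalized count over all libraries of a table. Values per library, and so a spread between replicates, are not part of these tables, and the labels do not say that the samples came from separate animals, so the p-values may measure technical spread. A gene counted as lower or higher when its adjusted p lay below 0.05 and its mean count was at least 10. Values are given per gene, for its exons together and for its introns together. The numbers of exons or introns tested below are therefore numbers of genes. Mean counts of all features summed to between 23754190 in ovary and 42229589 in the P8 testis. For Ythdc2 itself the authors' deposited table had log2 folds over all exons of -1.29 in the P12 testis (DESeq2 adjusted p = 9.87e-25), -0.43 in the P0 ovary (0.584), and -0.50 against wild type and -0.24 against the heterozygote at P8 (1 for each). Its transcript passed as lower in the P12 testis alone, and a sum over all exons cannot show whether exon 7 is altered.

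In the newborn ovary, a PIWI gene and factors from several steps of piRNA production fell in the knockout. Of the 10 genes, 9 had a mean count of at least 10, and 5 of those 9 fell: Mael, Piwil2, Mov10l1, Fkbp6 and Gtsf1. None rose. Among all 14606 exons tested, 0.445% fell and 0.103% rose. The median log2 fold of the 9 genes was -0.57, against 0.00 for all exons, and 8 of the 9 lay below 0.

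Mael, which encodes a protein of the perinuclear granules where piRNAs are made, had the largest fall. The authors' deposited table gave its exons a mean count of 250.1 and a log2 fold of -1.21, a level 2.32-fold lower in the knockout (adjusted p = 3.31e-10). Its fold was rank 14 from the lowest of 14606. Piwil2, the gene of MILI, had a fold of -1.16 in the authors' deposited table, a 2.23-fold fall at a mean count of 334.0 (adjusted p = 9.98e-09). For Mov10l1, the helicase that binds piRNA precursors, the authors' deposited table had a fold of -1.08, a 2.12-fold fall at a mean count of 400.5 (adjusted p = 4.58e-08). Piwil2 and Mov10l1 were at ranks 16 and 22 from the lowest, so the 3 largest falls among the genes were of similar size.

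The other falls were smaller. Fkbp6 encodes a co-chaperone that works with HSP90 in loading piRNAs, and stood at -0.71 in the authors' deposited table, a 1.64-fold fall (mean count 160.3, adjusted p = 0.00938). Gtsf1, whose small zinc finger product helps PIWI proteins cut their targets, was at -0.55 in the authors' deposited table (mean count 36.8, adjusted p = 0.0284). Asz1 encodes a scaffold on the mitochondrial surface, and its fold of -0.57 did not pass in the authors' deposited table (mean count 60.4, adjusted p = 0.0677). Gtsf1 and Asz1 thus had nearly the same fold and lay on either side of the threshold.

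Ddx4, the germ-cell helicase also called VASA, did not pass, with a fold of -0.34 in the authors' deposited table (mean count 171.9, adjusted p = 1.00). Pld6, the mitochondrial nuclease, was at -0.19 in the authors' deposited table, at a mean count of 26.1 (adjusted p = 1.00). The remaining PIWI genes had few reads in this ovary. Piwil1 had a mean count of 24.1 and a fold of 0.08 in the authors' deposited table, and Piwil4, with a mean count of 5.72, was below the minimum and had no adjusted p. In ovary the folds of exons with mean counts below 10 had an SD of 0.0352 across genes, against 0.133 from 10 to 100, 0.155 from 100 to 1000 and 0.112 above, so the fold of Piwil4 is of the kind that lay close to 0 in general.

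**Figure D1:**
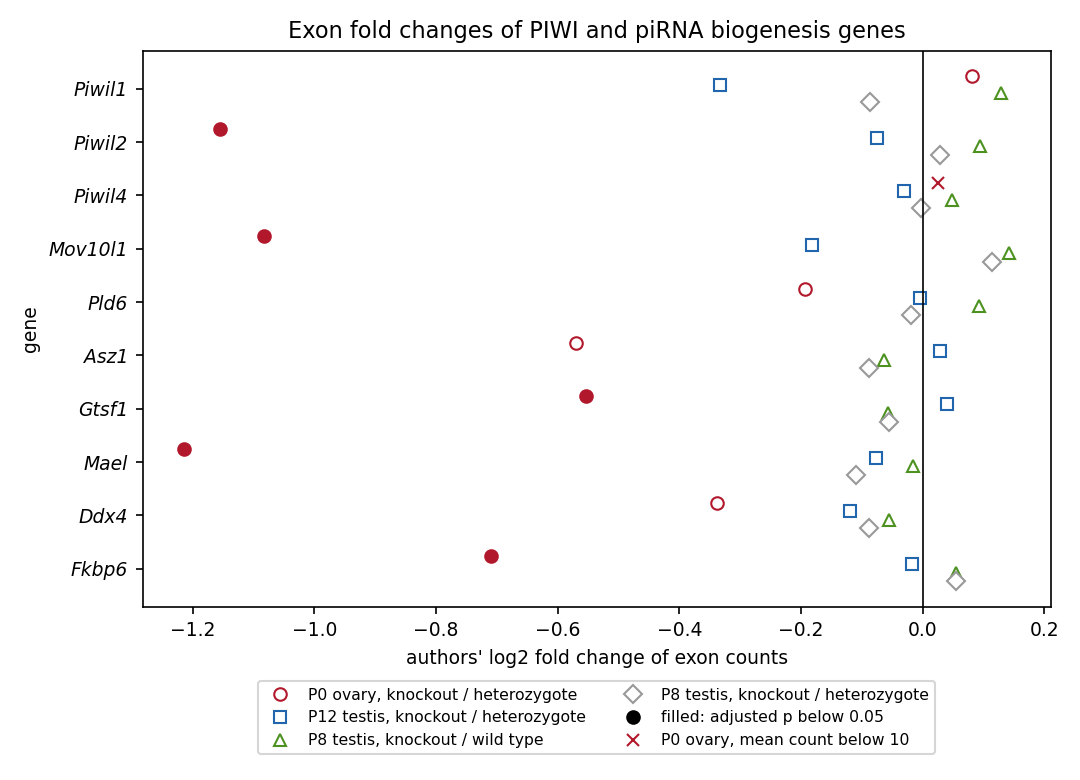
Authors' log2 fold changes of exon counts (x axis) for each of the 10 genes (y axis) in 4 comparisons, with filled symbols for adjusted p below 0.05 and a cross for a mean count below 10. Filled symbols appear in the P0 ovary only, at Mael, Piwil2, Mov10l1, Fkbp6 and Gtsf1, while the testis folds lie between -0.33 and 0.14.

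Germ cell markers did not fall with these genes as a list. Of the 8 genes of that list 0 fell, with a median of -0.09, and 1 rose, Tex101, at 0.78 in the authors' deposited table (DESeq2 adjusted p = 0.00174). Dazl, a defining gene of germ cells, was measured at a mean count of 703.5 with a fold of -0.15 in the authors' deposited table (DESeq2 adjusted p = 1.00). Oocyte markers did fall: 6 of 8, with a median of -1.39 and Nlrp5, Nobox and Dppa3 at -2.51, -1.79 and -1.65 in the authors' deposited table (DESeq2 adjusted p = 2.21e-44, 1.72e-22 and 1.48e-19). Sertoli and pregranulosa markers had a median of 0.16 and stromal and peritubular markers one of 0.14, with 0 genes called in either, and 0 were called among Leydig, macrophage, endothelial, undifferentiated spermatogonial and spermatid markers. In bulk gonads, fewer cells of a type and less RNA per cell cannot be told apart, and the part that cell composition has in the piRNA gene folds was not tested.

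Some other genes of the pathway fell in the ovary, and most did not pass. Of 25 further piRNA genes found in the tables, chosen with earlier results of these data known, 23 could be tested, 5 fell, 0 rose and 18 did not pass, with a median log2 fold of -0.10. The falling ones were the tudor-domain genes Tdrd1 and Tdrd9, at -1.83 and -1.52 in the authors' deposited table, then Tdrd5 at -0.73, Rnf17 at -0.71 and Exd1 at -0.51. Their adjusted p-values were 3.08e-25 for Tdrd1, 1.23e-15 for Tdrd9, 0.00683 for Tdrd5, 0.00576 for Rnf17 and 0.0474 for Exd1. Mybl1, a transcription factor that drives pachytene piRNA genes in the testis, was at 0.02 in the ovary in the authors' deposited table (DESeq2 adjusted p = 1.00). The introns of Tdrd1 and Tdrd9 also fell, at -0.94 and -1.07 in the authors' deposited table (DESeq2 adjusted p = 0.000131 and 4.32e-06), 2 of 18 introns tested in this list. Mov10, the widely expressed relative of Mov10l1, was at 0.14 in the authors' deposited table and did not pass (adjusted p = 1.00).

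The introns of the falling genes were lower by less than their exons in the ovary. Mael had an exon fold of -1.21 and an intron fold of -0.24 in the authors' deposited table, a difference of -0.97 on the log2 scale. For Piwil2 the folds were -1.16 and -0.49, for Mov10l1 -1.08 and -0.44, and for Fkbp6 -0.71 and -0.17 in the authors' deposited table, with differences of -0.67, -0.64 and -0.54. Gtsf1, at -0.55 and -0.33 in the authors' deposited table, had the smallest difference of the 5, -0.22. None of the 9 introns tested passed, where 0.186% of 12915 introns fell and 0.0929% rose. Over the 8 genes with both features at a mean count of at least 10, the median difference between exon and intron was -0.42 and 7 lay below 0. Over all 12275 genes with both, the median was 0.00, and 50.8% lay below 0. Intron counts were lower than exon counts for each of the 5 falling genes (43.5 for Mael, 66.5 for Piwil2), and the difference itself has no test here. Intron folds in ovary had an SD of 0.125 across genes at mean counts from 10 to 100, and 0.148 from 100 to 1000. The 5 genes were also picked by their exon calls and the 12275 were not, so the general median is no like-for-like comparison.

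**Figure D2:**
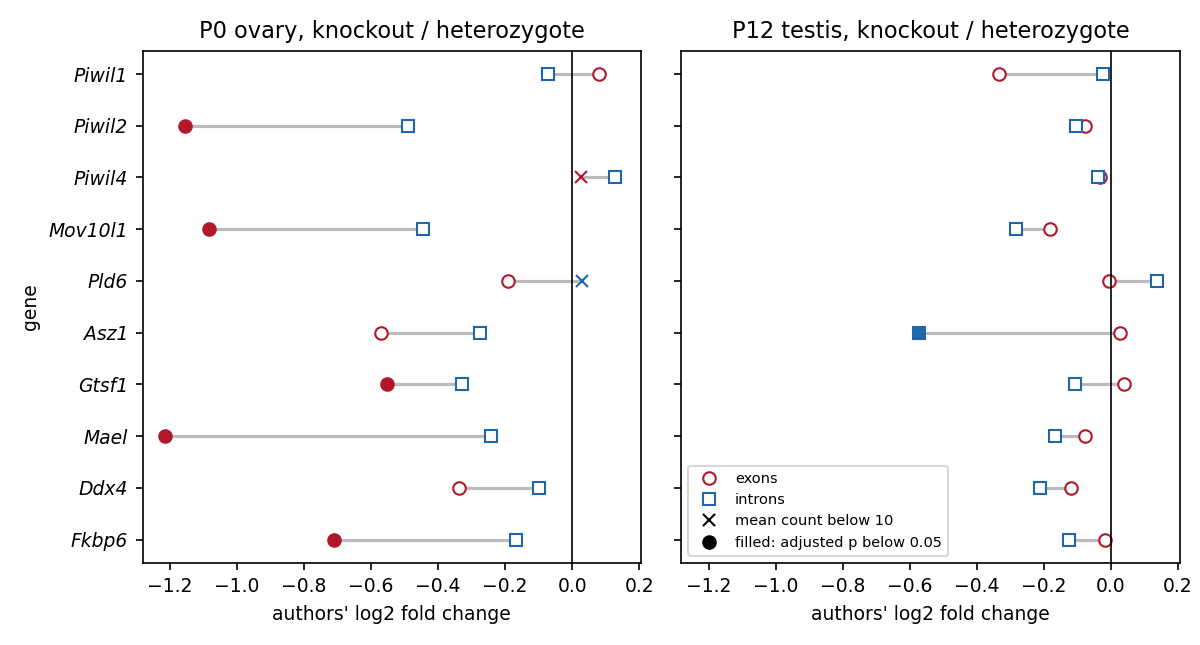
Authors' log2 fold changes (x axis) of exons (circles) and introns (squares) for each gene (y axis), joined by a line, in the P0 ovary (left) and P12 testis (right), with filled symbols for adjusted p below 0.05 and crosses for mean counts below 10. In ovary the exon symbols of Mael, Piwil2, Mov10l1 and Fkbp6 lie 0.54 to 0.97 to the left of their introns, and in testis the intron of Asz1 lies alone at -0.57.

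Promoters are shown because several of the genes fell together in the ovary. RefSeq promoters of GRCm38.p6, from 250 bases before to 50 after a transcript start, were found for 9 of the 10 genes, 12 promoters in all, with none for Piwil2. The search was for CACGTG, an E-box bound by basic helix-loop-helix factors, on both strands (the motif is its own reverse complement). It was present in 7 of the 12 promoters and in 6 of the 9 genes, Mael, Piwil1, Fkbp6, Pld6, Ddx4 and Mov10l1. Of all 32851 promoters of that length 7.15% held it, and of all 27025 genes 8.09%. In the list of other piRNA genes it was in 5 of 25 promoters, 20%, and in 4 of 17 genes. CACGTG holds a CpG, and 11 of the 12 promoters have at least 10 CpG, where the median of all promoters is 7. Among the 14281 promoters with at least 10 CpG, a minimum chosen after the data were seen, 10.9% held the motif, and 7 of those 11 did. Capitals mark CACGTG in the 5 promoters below, read 5′ to 3′ on the gene's strand. The first 3 belong to genes that fell in the ovary and hold the motif, Gtsf1 fell and has no match in this window, and Piwil1 did not fall and has matches.
Mael (chr1:166238695-166238994, minus strand): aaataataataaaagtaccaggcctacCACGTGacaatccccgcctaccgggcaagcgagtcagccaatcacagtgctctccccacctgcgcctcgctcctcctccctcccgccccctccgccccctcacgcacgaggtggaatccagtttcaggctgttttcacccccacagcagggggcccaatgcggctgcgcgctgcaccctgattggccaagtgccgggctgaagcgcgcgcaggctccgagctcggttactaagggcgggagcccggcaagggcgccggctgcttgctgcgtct
Mov10l1 (chr15:88982744-88983043, plus strand): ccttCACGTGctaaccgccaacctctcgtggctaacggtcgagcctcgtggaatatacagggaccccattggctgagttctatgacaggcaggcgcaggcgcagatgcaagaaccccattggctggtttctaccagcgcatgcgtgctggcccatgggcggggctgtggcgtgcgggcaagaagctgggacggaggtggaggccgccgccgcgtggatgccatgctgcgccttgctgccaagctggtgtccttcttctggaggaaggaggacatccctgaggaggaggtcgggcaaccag
Fkbp6 (chr5:135349995-135350294, minus strand): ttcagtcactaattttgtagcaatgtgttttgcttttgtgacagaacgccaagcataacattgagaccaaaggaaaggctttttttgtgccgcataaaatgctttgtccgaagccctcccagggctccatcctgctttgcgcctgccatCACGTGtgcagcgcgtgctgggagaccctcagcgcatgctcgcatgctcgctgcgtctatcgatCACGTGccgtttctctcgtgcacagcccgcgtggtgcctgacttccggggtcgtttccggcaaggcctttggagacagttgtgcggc
Gtsf1 (chr15:103430378-103430677, minus strand): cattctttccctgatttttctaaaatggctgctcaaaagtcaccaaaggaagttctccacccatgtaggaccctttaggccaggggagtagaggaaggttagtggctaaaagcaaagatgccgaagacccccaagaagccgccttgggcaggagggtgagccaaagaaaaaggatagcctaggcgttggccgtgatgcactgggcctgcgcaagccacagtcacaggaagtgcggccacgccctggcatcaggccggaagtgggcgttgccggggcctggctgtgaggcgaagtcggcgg
Piwil1 (chr5:128735996-128736295, plus strand): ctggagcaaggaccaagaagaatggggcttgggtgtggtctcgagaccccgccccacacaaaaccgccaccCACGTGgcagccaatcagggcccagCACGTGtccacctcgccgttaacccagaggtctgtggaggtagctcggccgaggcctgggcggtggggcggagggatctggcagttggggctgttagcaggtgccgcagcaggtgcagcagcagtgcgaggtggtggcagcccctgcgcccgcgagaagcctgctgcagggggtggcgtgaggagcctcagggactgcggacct
The match begins at position -223 in Mael and at -246 in Mov10l1, counted from the transcript start. Fkbp6 has matches at -101 and -37, and Piwil1 at -179 and -154. Promoters with at least 2 matches were 3 of the 12, counting both starts of Fkbp6, which overlap and share the same matches, against 0.594% of all promoters. The match of Ddx4 lies at -29, and that of the second Pld6 start at -33, close before the start of genes that did not pass in the ovary.

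The other motifs were searched on both strands too. TCCCGC, of the E2F type, was found in 2 of the 12 promoters (Mael and Ddx4), against 20% of all promoters. GGGCGG, of the Sp1 type, whose matches overlap those of TCCCGC in Mael and Ddx4, was in 7 of the 12, against 35.7%. AACNG, the core of MYB sites, was in 11 of the 12, against 80.3%, so that its presence separates few promoters. Gtsf1 was the one promoter without any of the 4 motifs. Presence of a motif is a description of these letters, and binding was not measured.

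**Figure D3:**
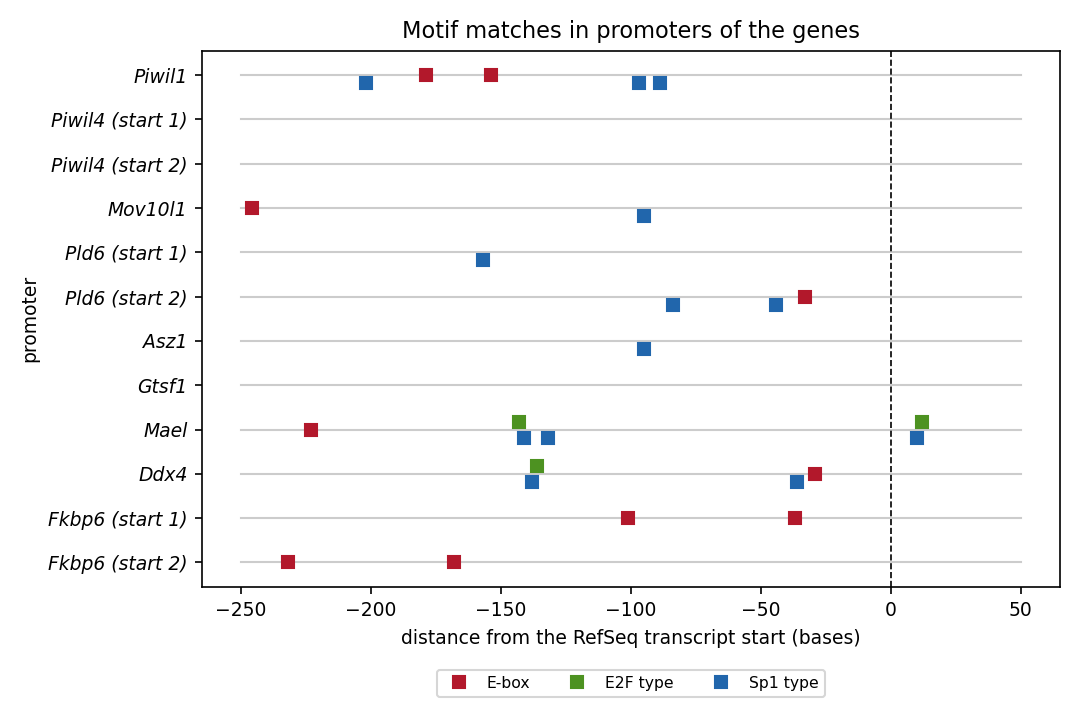
Positions of E-box (red), E2F type (green) and Sp1 type (blue) matches in the 12 RefSeq promoters of 9 genes, by distance in bases from the transcript start (x axis). E-boxes lie in 7 promoters, from -246 in Mov10l1 to -29 in Ddx4, and the MYB core, present in 11 promoters, is not drawn.

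In the P12 testis the exons of the PIWI pathway genes did not pass in either direction. By the authors' DESeq2 values 0 of 10 exons fell and 0 rose, where 0.782% of the 15608 exons tested fell and 0.0961% rose, and counts at an unadjusted p could not be made from adjusted values. The median of the 10 folds was -0.05, against 0.01 for all exons, and 8 of 10 lay below 0. Piwil1 had the lowest fold, -0.33, in the authors' deposited table (mean count 96.8, adjusted p = 0.595). Mov10l1 followed at -0.18 and Ddx4 at -0.12 in the authors' deposited table, with adjusted p of 0.879 and 0.986. Mael and Piwil2 were, together with Mov10l1, the genes that fell most in the ovary. Mael and Piwil2 each stood at -0.08 here in the authors' deposited table, at mean counts of 2905 and 4234 (adjusted p = 0.994 for both). Fkbp6 at -0.02, Piwil4 at -0.03, Pld6 at 0.00, Asz1 at 0.03 and Gtsf1 at 0.04 in the authors' deposited table complete the set. The ovary and testis folds come from tables normalized separately, and the difference between the tissues was not tested.

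Asz1 introns were the exception in the P12 testis. They fell, with a log2 fold of -0.57 at a mean count of 582.7 in the authors' deposited table (DESeq2 adjusted p = 0.00447), while the exons, at a mean count of 576.4, were at 0.03 (adjusted p = 0.996). Among 13885 introns tested 0.929% fell and 0.0936% rose, and Asz1 was the 1 member among 10 past the threshold. The other introns ranged from -0.28 (Mov10l1) to 0.14 (Pld6), with a median over all 10 of -0.12, against 0.01 for all introns. Exon and intron of Asz1 differed by 0.60, the widest gap among the 10 genes at P12. Its introns were at -0.27 in the ovary and at -0.05 against wild type at P8 in the authors' deposited table (DESeq2 adjusted p = 1.00 and 1). Asz1 lies on chromosome 6 (18050964 to 18109061, GRCm38.p6), between Wnt2 and Cftr. The introns of Cftr, a chloride channel gene that starts at 18170687, were at -0.52 and did not pass in the authors' deposited table (mean count 289.8, adjusted p = 0.0610), with exons at -0.21 (adjusted p = 0.917). The introns of Wnt2, at a mean count of 12.8, were at 0.02 in the authors' deposited table. Which transcripts the intron reads of Asz1 came from was not tested.

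Among the other piRNA genes at P12, 1 of 25 exons fell, 0 rose and 24 did not pass, with a median of -0.04. The falling one was Mybl1, at -0.54 in the authors' deposited table (DESeq2 adjusted p = 0.0144). Tdrd1, which fell in the ovary, was at -0.02 in the authors' deposited table (DESeq2 adjusted p = 0.996). Of the 8 genes of the germ cell list 2 fell and 6 did not pass. The falling ones were Sycp3 and Hormad1, at -0.66 and -0.56 in the authors' deposited table (DESeq2 adjusted p = 0.00407 and 0.0257). Dazl was at 0.03. Of the somatic lists, 1 of 4 Leydig markers rose, Cyp17a1 at 0.76, and 1 of 4 macrophage markers, Cd52 at 0.42, in the authors' deposited table (DESeq2 adjusted p = 0.000122 and 0.0273), and their part in the values of the piRNA genes was not tested.

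At P8 the piRNA genes had folds close to 0 against either control, and none passed. Against the wild type, 0 of 10 exons fell and 0 rose by the authors' DESeq2 values, where 0.00641% of 15592 exons fell and 0.0385% rose. Their folds ranged from -0.06 (Asz1) to 0.14 (Mov10l1) with a median of 0.05. Against the heterozygote the range was -0.11 (Mael) to 0.11 (Mov10l1) with a median of -0.04, where 0.0513% of exons fell and 0.00641% rose. Both comparisons use the same knockout libraries, and each control is a single library. Every adjusted p of these exons was 1 in the authors' deposited table. The introns ranged from -0.11 (Ddx4) to 0.10 (Mov10l1) against the wild type, and 0 of 10 passed, where 0.00706% of 14173 introns fell and the same share rose. Against the heterozygote 0 of 10 introns passed, from -0.12 (Asz1) to 0.13 (Fkbp6), where 0.0212% fell and none rose. Of the 25 other piRNA genes 0 passed against either control, in exons or introns.

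Piwil1, which is abundant in later spermatocytes and spermatids, was the member that differed most between the 2 P8 controls. The authors' deposited table had it at 0.22 in the heterozygous over the wild-type library (adjusted p = 1), and the other 9 genes between 0.00 (Gtsf1) and 0.11 (Pld6). None of the 10 passed in exons, where 0.0128% of all exons rose, or in introns, where 0.0141% rose, and none of all exons or introns fell. In that comparison of 1 library with 1 library, spermatid genes were higher in the heterozygous one, with Prm2 at 0.74 and Prm1 at 0.51 in the authors' deposited table (DESeq2 adjusted p = 0.000147 and 0.0226). Of the 5 spermatid markers tested 2 passed and all 5 lay above 0, and against the same heterozygote 3 of the 5 (Prm2, Prm1 and Tnp2) were lower in the knockout. Leydig introns differed between these libraries too: Cyp17a1 introns stood at 1.61 in the heterozygote over the wild type in the authors' deposited table (DESeq2 adjusted p = 5.13e-13), with 1 of 4 Leydig introns higher. In the knockout over that heterozygote 2 of the 4 were lower, Cyp17a1 at -2.11 and Star at -0.91 in the authors' deposited table (DESeq2 adjusted p = 3.24e-22 and 0.0134), while Leydig exons had 0 of 4 called in either comparison. Against the heterozygote, the knockout had Piwil1 at -0.09, and against the wild type at 0.13, in the authors' deposited table. The sign of the Piwil1 fold thus depends on the control, and the part of the spermatid and Leydig transcripts in it was not tested.

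In the m6A immunoprecipitation of wild-type P8 testis, exons of 9 of the 10 genes were depleted and those of Pld6 were enriched. A fold below 0 here means fewer fragments in the antibody fraction than in the input, relative to the other transcripts of the same libraries. About as many of the 16399 exons tested passed in each direction, 25.4% lower and 25.9% higher. The median of the 10 folds was -1.29, against -0.01 for all exons. This comparison holds 1 immunoprecipitate and 1 input, so no replicate checks it. Its adjusted p-values cannot measure a spread between P8 replicates, and the spread behind them is not given in the sources used here. Mean counts given with these folds are over the P8, P12 and P20 m6A libraries together.

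Pld6 had a fold of 2.20 in the authors' deposited table, 4.58-fold more in the immunoprecipitate than in the input (mean count 3760, adjusted p = 7.17e-26). That was rank 425 from the highest of 16399. Ddx4 lay at the other end, at -2.07 in the authors' deposited table, a 4.21-fold depletion (mean count 7216, adjusted p = 3.61e-23). Mael followed at -1.86, Gtsf1 at -1.53 and Asz1 at -1.51 in the authors' deposited table, with adjusted p of 8.57e-17, 5.45e-07 and 4.08e-10. The 3 PIWI genes had nearly equal folds, Piwil4 at -1.31, Piwil2 at -1.27 and Piwil1 at -1.27 in the authors' deposited table (DESeq2 adjusted p = 0.0352, 2.96e-07 and 2.84e-06). Fkbp6 at -1.23 and Mov10l1 at -1.16 completed the depleted genes in the authors' deposited table (DESeq2 adjusted p = 2.37e-08 and 4.99e-09). The depleted genes thus lay between -2.07 and -1.16, and Pld6 stood apart from them. Markers of the germ cell list mostly lay below 0 as well, 7 of 8, with a median of -0.92. Undifferentiated spermatogonial markers mostly lay above 0, 5 of 6, with a median of 0.80.

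Among the 10 genes Pld6 has the shortest genomic span, at 3765 bases (chr11:59783893-59787657, GRCm38.p6), while the others span 19404 (Piwil1) to 72262 bases (Mov10l1). A relation of span to the m6A fold was not tested. The intron folds of the genes ran from -0.95 (Ddx4) to 0.48 (Piwil1) with a median of -0.39, against -0.03 for all introns. Ddx4 introns fell below the threshold at -0.95 in the authors' deposited table (DESeq2 adjusted p = 0.0130), where 2.24% of 13055 introns were lower and 4.15% higher, and the other 9 introns did not pass or, for Pld6, had no adjusted p. Exons lay below introns for the 9 depleted genes, by 0.67 (Piwil4) to 1.75 (Piwil1), and above them by 1.99 for Pld6. Over all 12583 genes with both, the median difference was -0.23 and 56.8% lay below 0. The genes are grouped here by their exon folds. Intron folds also spread less, with an SD of 0.69 across genes at mean counts from 100 to 1000, against 1.12 for exons. These differences have no test here. Of the 25 other piRNA genes 14 were depleted, 6 enriched and 5 not called, with a median of -1.04. Rnf17 at -1.94 and Tdrd9 at -1.76 were depleted and Btbd18 was enriched at 1.75 in the authors' deposited table (DESeq2 adjusted p = 3.11e-20, 5.31e-15 and 1.49e-12). The other named ones, Ddx39a (as Ddx39) at -1.54, Mybl1 at -1.54 and Morc1 at -1.81, were depleted in the authors' deposited table (DESeq2 adjusted p = 4.51e-10, 1.44e-09 and 3.31e-09).

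**Figure D4:**
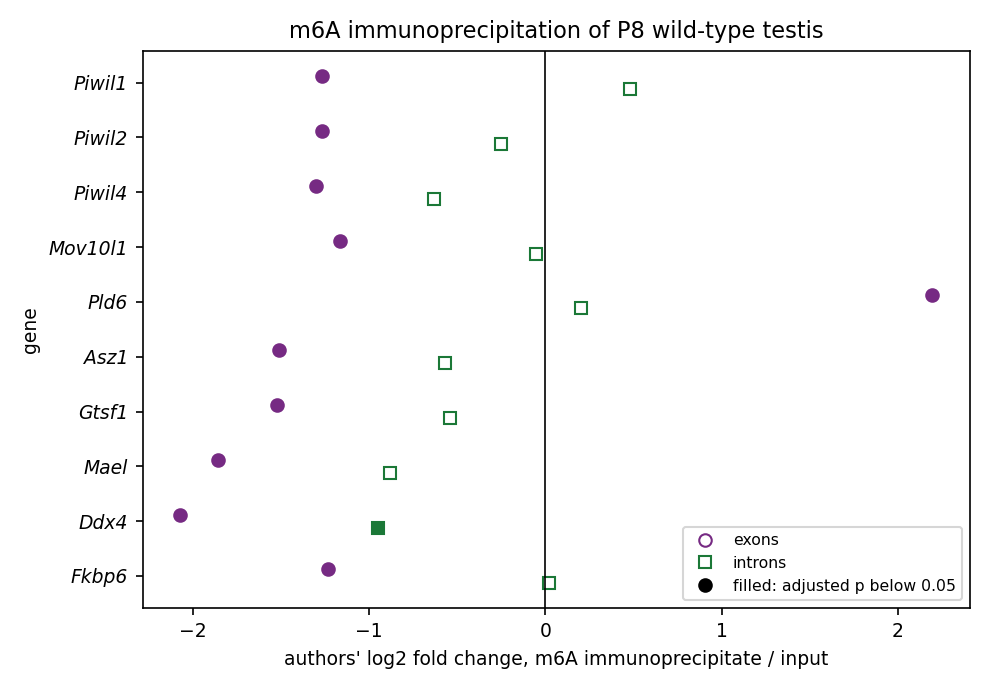
Authors' log2 fold change of m6A immunoprecipitate over input (x axis) for exons (circles) and introns (squares) of each gene (y axis) in P8 wild-type testis, 1 library each, with filled symbols for adjusted p below 0.05. Exons of 9 genes lie between -2.07 and -1.16, and those of Pld6 at 2.20.

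The 5 genes that fell in the P0 ovary, Mael, Piwil2, Mov10l1, Fkbp6 and Gtsf1, were all depleted in the P8 testis immunoprecipitate, as were 4 of the other 5. With 9 of 10 genes depleted, these values cannot show whether the m6A fold and the knockout fold are related. The enriched gene, Pld6, did not pass in any knockout comparison. The m6A values come from testis and the falls from ovary, and m6A of the ovary was not analysed here.

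The intron mean count, as a percent of the exon mean count, was lower in the m6A table than in the total RNA tables for all 10 genes. The intron mean count of Piwil2 was 14.1% of its exon count in the P8 testis, 14.6% at P12 and 19.9% in the ovary. Mael had 23.6%, 19.6% and 17.4% in the same order, and Pld6 16.0%, 17.8% and 15.1%. Other genes varied more between the tables: Fkbp6 had 43.1%, 32.2% and 63.9%, and Ddx4 37.9%, 36.2% and 58.7%. Piwil4 and Asz1 had more intron than exon signal, with 164%, 117% and 313% for Piwil4 and 133%, 101% and 135% for Asz1. The ovary value of Piwil4 rests on an exon count below the minimum. In the m6A table, which used polyadenylated RNA from P8, P12 and P20, the same share was 0.712% for Pld6, 1.85% for Mael, 4.34% for Piwil2, 24.0% for Asz1 and 62.8% for Piwil4. Each of these lay below the gene's value in every total RNA table. Medians over all genes moved the same way, from 54.2% at P8, 39.6% at P12 and 73.5% in ovary to 12.2%. These shares are not corrected for the length of exons and introns, so they compare tables within a gene and not genes with each other. Mean counts of the m6A table are over immunoprecipitates and inputs of P8, P12 and P20 together. Antibody selection, the use of polyadenylated RNA and the mix of ages therefore cannot be told apart in its shares. Exons of Pld6, for example, were 4.58-fold enriched in the immunoprecipitate at P8.

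**Figure D5:**
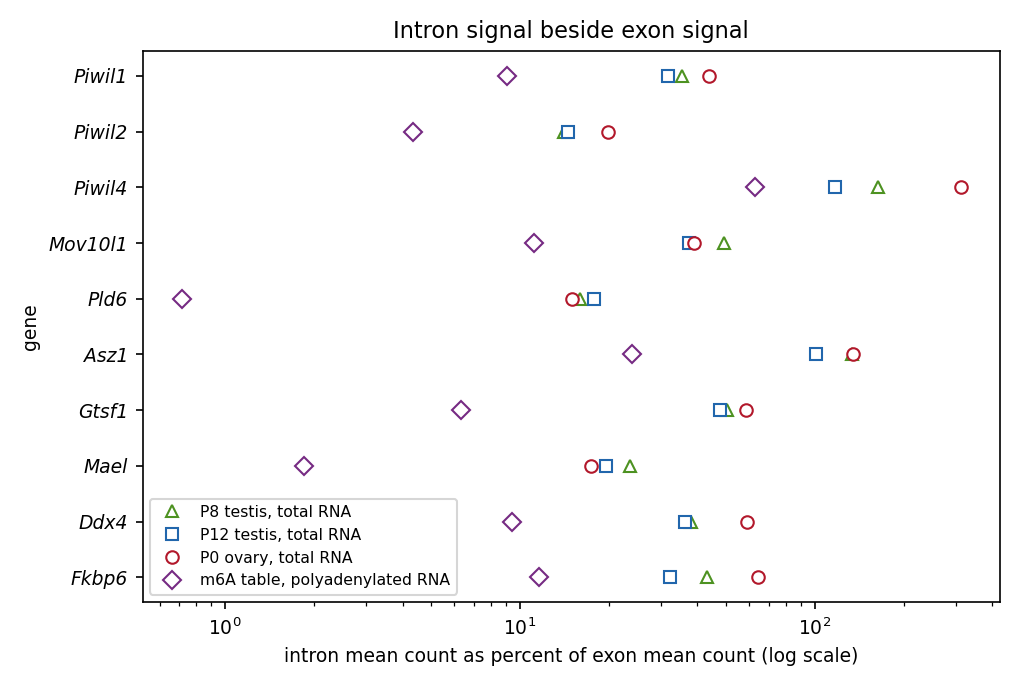
Intron mean count as a percent of the exon mean count (x axis, log scale) for each gene (y axis) in the P8 testis, P12 testis and P0 ovary total RNA tables and in the m6A table of polyadenylated RNA, immunoprecipitates and inputs together. The m6A table's symbol lies to the left of the 3 total RNA symbols for all 10 genes, from 0.712% (Pld6) to 62.8% (Piwil4).

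Piwil1 reached a mean count of 7181 in exons of the m6A table, whose libraries include P20 testis and immunoprecipitates, and 182.6 and 96.8 in the total RNA tables of P8 and P12 testis. Piwil4 had mean counts of 180.5 and 153.0 at P8 and P12 and 93.2 in the m6A table. The tables were normalized separately, so these levels are set side by side without a test. Reads antisense to the genes were few. The highest antisense mean count over exons in any total RNA table was 12.7, at Pld6 in the P12 testis, and 0 antisense features of the 10 genes passed.

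Transposons, the targets of piRNAs, were measured in the same tables as families of repeats. Of the 6 LINE-1 families whose names begin with L1Md, 0 passed in any knockout comparison by the authors' DESeq2 values. Their medians were 0.07 in the P0 ovary, -0.01 in the P12 testis, and -0.01 against wild type and 0.02 against the heterozygote at P8. All 6 lay above 0 in ovary, from 0.06 to 0.13, where 0.384% of 1043 sense repeats fell and 0.192% rose. Of 25 IAP families 1 rose and 1 fell in ovary, IAPEY4_I-int with 0.63 and IAP-d-int with -0.37 in the authors' deposited table (DESeq2 adjusted p = 2.48e-18 and 0.00959). IAPEY4_I-int had the opposite sign at P8 against the wild type, -0.53 in the authors' deposited table (DESeq2 adjusted p = 0.00340), the 1 repeat that fell there (0.0923% of 1084). For this family the heterozygote over the wild type stood at -0.44 and the knockout over the heterozygote at -0.09 in the authors' deposited table (DESeq2 adjusted p = 0.186 and 1.00), and both folds over the wild type use its single library. No IAP family passed at P12, where 0.0945% of 1058 sense repeats fell, or at P8 against the heterozygote. How reads of repeats with many copies were counted is not given in the sources used here.

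In the m6A immunoprecipitate 4 of the 6 L1Md families were enriched, where 15.7% of 1066 sense repeats were higher and 5.72% lower. L1Md_F, L1Md_A and L1Md_F2 stood at 1.89, 1.84 and 1.20 in the authors' deposited table (DESeq2 adjusted p = 8.16e-22, 1.34e-15 and 1.86e-08), and L1Md_F3 and L1Md_T did not pass. The folds of L1Md_F3 and L1Md_T were -0.58 and -0.46 in the authors' deposited table. The 4 LINE-1 families that passed thus had the sign of Pld6, while L1Md_F3 and L1Md_T had that of the other 9 piRNA genes.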

How the data were processed

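Mouse gonad RNA was sequenced as total RNA in 14 libraries and, for m6A, in 10 libraries of immunoprecipitate and input. The submitters' processing notes name mm10 and DESeq2 for the testis and ovary libraries, and also cutadapt for the ovary. Neither versions nor the aligner, the counting or the annotation were given in the sources used here. The deposited values are, per the file headers, a signal (the normalized count averaged over a table's libraries), log2 fold changes and adjusted p-values. The P8 and P12 knockout tables have IP and input in column names and were read as knockout over control, since the labels give total RNA. In the knockout tables, folds at mean counts below 10 spread less than those above. Nothing was refitted: the planned reading of adjusted p at 0.05 and a minimum mean count of 10 was applied with Python 3.11.15 and pandas 2.3.3, and counting and motif functions were tested on simulated data. In the m6A table the P12 and P20 columns are each sorted by their own adjusted p, apart from the gene names, so P8 columns alone were used. Lists are described by counts and medians. All 10 genes are named, of the other pathway genes at most 6 per comparison that passed, and of marker lists and repeat families at most 3 that passed. Mybl1, Mov10, Tdrd1, Dazl, Wnt2, Cftr, L1Md_F3 and L1Md_T, where they did not pass, were added after the values were seen. Of the 26 other pathway genes 25 matched, with Spocd1 unmatched. Genes and lists were chosen with earlier results of these data known. The Bind-N-Seq file was not used, and 8 columns of values per library in it matched no label.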

Additional observations from a re-analysis of the deposited data

How the results depend on the processing

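Of 129 recomputed values over thresholds of 0.1 and 0.01, minimum mean counts of none and 100, centred folds, introns, the other P8 control and CpG-rich promoters, 119 stayed within 1.5 times (counts) or within 0.1 log2 (medians). Many of the 119 are counts of 0 that stayed 0. In the P8 testis no threshold or minimum used here could have changed them, so 119 is no measure of stability. With introns in place of exons, genes called lower went from 0 to 1 in the P12 testis, from 5 to 0 in the P0 ovary and from 9 to 1 in the m6A comparison, genes called higher in the latter from 1 to 0, and medians from -0.57 to -0.24 in ovary and from -1.29 to -0.39 for m6A. At a minimum mean count of 100 the median was -1.08 in ovary exons, over the 5 genes left, and -0.25 in m6A introns, over 7. At a threshold of 0.01 the m6A introns had 0 genes lower in place of 1. In CpG-rich promoters, added after seeing the data, the general share of CACGTG was 10.9% in place of 7.15%. In ovary exons, 6 genes passed at a threshold of 0.1 (with Asz1) and 4 at 0.01 or at a minimum mean count of 100 (without Gtsf1). Apart from the smaller sets at a higher minimum, the cause was not tested. No paired analysis was possible because the tables hold no values per library, and leaving out replicates in turn was not run for the same reason. Depth limits the ovary fold of Piwil4, whose mean count of 5.72 was below the minimum.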
